A study of Mus musculus with 2 samples.

Results

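The DNA replication and mitosis genes are 36 genes chosen by name, 22 that copy DNA or make its building blocks and 14 that drive or mark cell division. All 36 had at least 1 read in replicate 1 and 35 had 1 in replicate 2, out of 18179 annotated genes with a read in either library. They were measured in the adrenal gland of female B6CASTF1/J mice aged 10 days, the F1 of a cross of C57BL/6J with CAST mice. The assay was long-read RNA sequencing, where 1 read can span an RNA molecule from end to end. The labels give 1 group of 2 biological replicates, with no treatment, no second age and no second tissue, so levels are described and no condition is compared. The text of both libraries names animal 03, whereas the biosample texts name animals 03 and 04, so 1 animal and 2 animals cannot be told apart. Every p below compares the reads of the 2 libraries, not conditions, and may measure technical spread only.

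Replicate 1 held 593058 reads and replicate 2 held 772037 reads after removal of the spike-in RNAs. Levels are CPM, counts scaled to these library totals. Since 1 long read comes from 1 molecule or a copy of it, they were compared between genes without division by length. Effects of length on level were not removed. Over all genes the median level was 23.9 CPM where the principal annotated transcript had up to 2 kb, and 8.1 CPM above 6 kb. For a gene with 0 reads the depth allows a level of up to 5.06 CPM (replicate 1) or 3.89 CPM (replicate 2), which is 3 reads of the total. Intervals and limits cover counting error only, because no molecular identifiers are named. The tissue label was checked against marker genes: 6 of 6 steroidogenic cortex markers and 6 of 6 chromaffin markers had at least 5 reads in each library. Markers of other tissues and cell types were also read, at unequal levels in the libraries. The summed level of 6 kidney markers was 0 CPM in replicate 1 and 645 CPM in replicate 2, that of 6 liver markers 7298 and 1131 CPM, and that of 6 skeletal muscle markers 10321 and 3410 CPM. Brown adipocyte markers summed to 9188 and 13858 CPM, and markers of erythroid precursors, which divide, to 231 and 127 CPM. Dividing cells of any of these sources would add to the genes described here, and their part was not tested. In such bulk samples fewer dividing cells and less RNA per cell cannot be told apart.

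DNA replication begins when the loading factors Cdc6 and Cdt1 place the ring-shaped MCM helicase, made of Mcm2 to Mcm7, on chromosomes, and continues when the helicase opens the double strand for the polymerases. Mitosis follows under Cdk1 and its cyclins, and the anaphase-promoting complex ends it by marking cyclins for destruction. Transcripts of many genes of both groups are more abundant in dividing cells. Many replication genes peak around S phase and many mitosis genes in G2 and M phase. In the adrenal cortex new steroid-making cells arise from progenitors in and under the capsule.

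The replication genes together reached 1158 CPM in replicate 1 (687 reads, 95% exact Poisson interval 1073 to 1248) and 1082 CPM in replicate 2 (835 reads, 1009 to 1157), a mean of 1120 ± 54.3 CPM (SD, n = 2). The mitosis genes reached 391 CPM in replicate 1 (232 reads, 342 to 445) and 387 CPM in replicate 2 (299 reads, 345 to 434), a mean of 389 ± 2.76 CPM. In both libraries the replication sum lay above the mitosis sum, 2.96-fold in replicate 1 and 2.79-fold in replicate 2, and the intervals of the sums did not overlap. Mitosis genes thus held 25.2% of the reads of both groups in replicate 1 (Clopper-Pearson 95% interval 22.5 to 28.2) and 26.4% in replicate 2 (23.8 to 29.0). The difference was not only one of gene number: the median replication gene stood at 50.6 and 45.3 CPM in replicates 1 and 2, and the median mitosis gene at 24.5 and 27.8 CPM. Between the medians the ratio was smaller, 2.07 and 1.63. Both groups together took 0.155% and 0.147% of all reads.

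Depth left few of these genes below the mark for detection, but single levels were imprecise, as for Mcm4 with an interval of 20.6 to 52.1 CPM in replicate 1. At least 5 reads in each library were found for 20 of 22 replication genes and 11 of 14 mitosis genes, beside 52.9% of all annotated genes with a read. The 5 below that mark were the loading factor Cdc6, the polymerase subunit Pola1, the proliferation marker Mki67, the spindle assembly factor Tpx2 and the kinetochore protein Cenpf. Their counts fell under 5 in 1 or both libraries, so no order among them can be read.

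**Figure D1:**
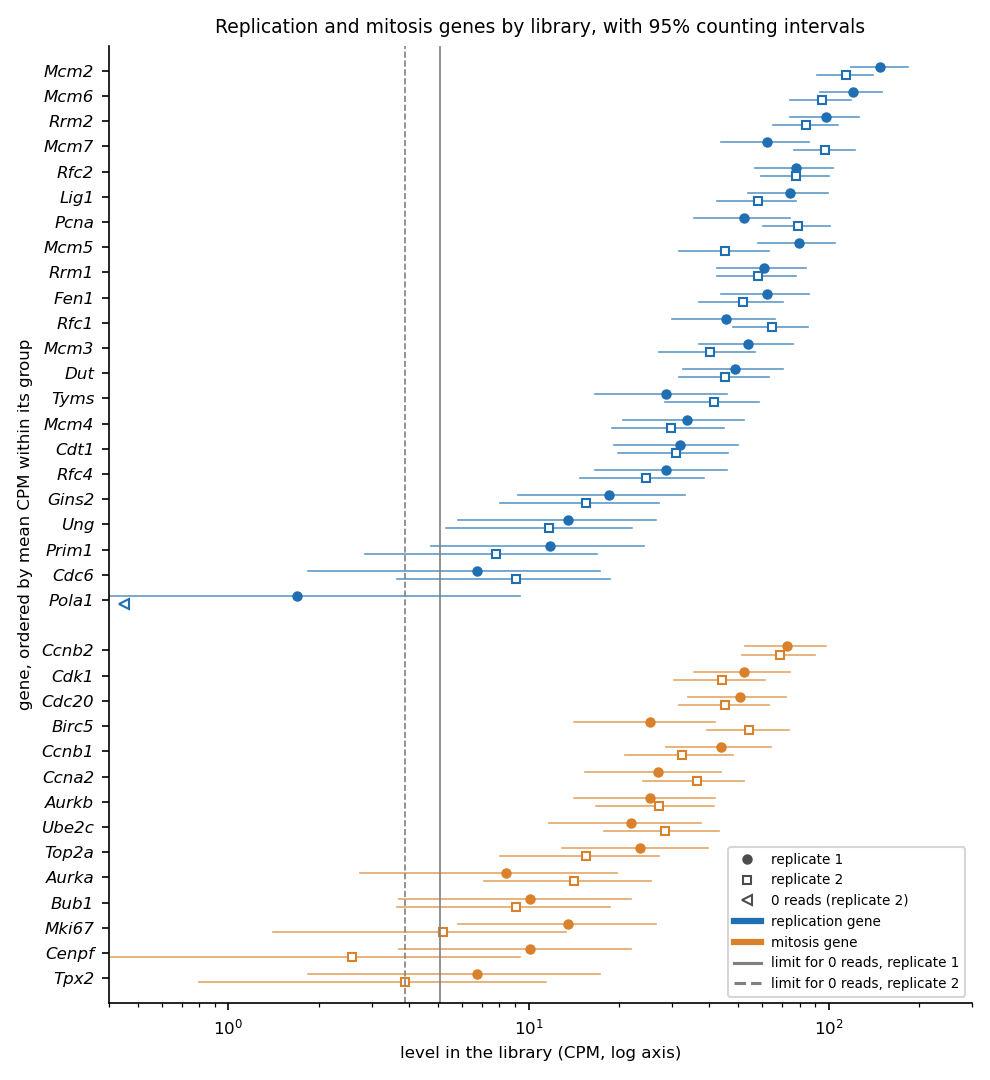
Level of each gene in CPM (log axis) in replicate 1 (filled circles) and replicate 2 (open squares), with exact 95% Poisson intervals as bars, those that meet the left edge going on beyond it; vertical lines mark the limit for 0 reads, 5.06 and 3.89 CPM. Mcm2 stands at the top of the replication genes (blue) with 148 and 114 CPM, Ccnb2 at the top of the mitosis genes (orange) with 72.5 and 68.6 CPM, and the 2 symbols of most genes lie within each other's intervals.

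The helicase genes were the best-read family. Mcm2 (ENSMUSG00000002870.8, chromosome 6, 88883474 to 88898780, minus strand, all coordinates on mm10) had 88 reads in each library, which is 148 CPM in replicate 1 and 114 CPM in replicate 2, and with a mean of 131 ± 24.3 CPM it ranked 1397th among all annotated genes with a read. Mcm6 followed with 71 and 73 reads (120 and 94.6 CPM, mean 107 ± 17.8). These 2 subunits were above the other 4 in both libraries, except that Mcm6 was just under Mcm7 in replicate 2. Mcm7 had 37 and 75 reads (62.4 and 97.1 CPM). Mcm5 had the opposite order, with 47 and 35 reads (79.3 and 45.3 CPM). Mcm7 and Mcm5 thus changed places between the libraries. Mcm3 had 32 and 31 reads (54.0 and 40.2 CPM), and Mcm4 was the lowest with 20 and 23 reads (33.7 and 29.8 CPM). The 6 subunits join in equal numbers in the helicase. The intervals of Mcm2 (119 to 183 CPM in replicate 1, 91.4 to 140 in replicate 2) lay above those of Mcm4 (20.6 to 52.1 and 18.9 to 44.7) in both libraries.

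Of the loading factors, Cdt1 stood near the lowest helicase gene, Mcm4, with 19 and 24 reads (32.0 and 31.1 CPM), and Cdc6 stood below every helicase gene in both libraries. Cdc6 had 4 and 7 reads (6.74 and 9.07 CPM). Gins2, a subunit of the complex that joins the helicase with Cdc45, had 11 and 12 reads (18.5 and 15.5 CPM). The intervals of Cdc6 reached below the limit for 0 reads in both libraries.

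Of the enzymes that copy and join the strands, the polymerase alpha and primase subunits were at the bottom of the group. Pola1, the catalytic subunit of polymerase alpha (ENSMUSG00000006678.6, chromosome X, 93304767 to 93632155, minus strand), had 1 read in replicate 1 and 0 in replicate 2. That single read was an unspliced one classed as genomic, so no read showed a spliced Pola1 transcript. The 95% upper bound of its level was 9.39 CPM in replicate 1 and 4.78 CPM in replicate 2. Prim1, the small subunit of the primase, had 7 and 6 reads (11.8 and 7.77 CPM). The clamp and its loader were higher: Pcna, the sliding clamp, had 31 and 61 reads (52.3 and 79.0 CPM), and of the loader subunits Rfc2 had 46 and 60 reads (77.6 and 77.7 CPM), Rfc1 27 and 50 reads (45.5 and 64.8 CPM) and Rfc4 17 and 19 reads (28.7 and 24.6 CPM). The clamp gene has a processed copy, Pcna-ps2, to which the deposit assigned 2 and 5 reads, so reads could be split between them. Fen1, which trims the flaps of Okazaki fragments, had 37 and 40 reads (62.4 and 51.8 CPM). Lig1, the ligase that seals them (ENSMUSG00000056394.17, chromosome 7, 13277283 to 13311433, plus strand), had 44 and 45 reads (74.2 and 58.3 CPM). Most of them lay on a short unspliced model described further on.

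Of the nucleotide enzymes, the ribonucleotide reductase subunits led. Rrm2, the subunit that is made anew in S phase, had 58 and 65 reads (97.8 and 84.2 CPM), the third highest mean of the group. Its partner Rrm1 had 36 and 45 reads (60.7 and 58.3 CPM). The intervals of the subunits overlapped in both libraries. Dut, which removes dUTP, had 29 and 35 reads (48.9 and 45.3 CPM). Tyms, the thymidylate synthase, had 17 and 32 reads (28.7 and 41.4 CPM). Ung, which cuts uracil out of DNA, was lower, with 8 and 9 reads (13.5 and 11.7 CPM).

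Among the mitosis genes the cyclins and the kinase they activate stood high. Ccnb2, a B-type cyclin (ENSMUSG00000032218.7, chromosome 9, 70407692 to 70421547, minus strand), had 43 and 53 reads (72.5 and 68.6 CPM, mean 70.6 ± 2.73), the highest of the group. Ccnb1, the other B-type cyclin, had 26 and 25 reads (43.8 and 32.4 CPM). Ccna2, the cyclin of S and G2 phase, had 16 and 28 reads (27.0 and 36.3 CPM). Ccnb1 and Ccna2 changed order between the libraries, with overlapping intervals in each. Cdk1, their kinase (ENSMUSG00000019942.13, chromosome 10, 69335146 to 69352938, minus strand), had 31 and 34 reads (52.3 and 44.0 CPM). In replicate 2 the interval of Ccnb2 (51.4 to 89.8 CPM) lay above that of Ccnb1, whose upper bound was 47.8 CPM, and in replicate 1 the intervals of the B cyclins overlapped.

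The genes of mitotic exit were near the level of Cdk1 or below it. Cdc20, which activates the anaphase-promoting complex, had 30 and 35 reads (50.6 and 45.3 CPM). Ube2c, the ubiquitin carrier of that complex, had 13 and 22 reads (21.9 and 28.5 CPM). Exons of Ube2c share 592 bases with those of Tnnc2, a troponin of muscle on the opposite strand with 937 and 428 reads. Of the Ube2c reads, 9 and 20 lay on its annotated 6-exon transcript.

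The chromosomal passenger complex and the mitotic kinases covered a wider range. Birc5 or survivin, a passenger subunit (ENSMUSG00000017716.15, chromosome 11, 117849251 to 117855743, plus strand), had 15 and 42 reads (25.3 and 54.4 CPM), the widest gap between the libraries among the mitosis genes in CPM. Aurkb, the kinase of the complex, had 15 and 21 reads (25.3 and 27.2 CPM). The passenger genes were level in replicate 1 and apart in replicate 2, where their intervals still met. Aurka, the kinase of the spindle poles, had 5 and 11 reads (8.43 and 14.2 CPM), and Tpx2, which activates it, had 4 and 3 reads (6.74 and 3.89 CPM). Bub1, a kinase of the spindle checkpoint, had 6 and 7 reads (10.1 and 9.07 CPM).

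Top2a, which untangles sister DNA, had 14 and 12 reads (23.6 and 15.5 CPM). Mki67, the gene of a widely used proliferation marker (ENSMUSG00000031004.8, chromosome 7, 135689784 to 135716361, minus strand), had 8 and 4 reads (13.5 and 5.18 CPM). Cenpf had 6 and 2 reads (10.1 and 2.59 CPM), the latter under the limit for 0 reads. In both libraries Mki67 and Cenpf were thus below Cdk1, Cdc20 and the B cyclins, and beside these genes of several kilobases the read classes given below matter.

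No gene of either group passed the test between the libraries. Of all 10567 genes with at least 10 reads over both libraries, 366 were called different (3.46%) by a two-sided exact binomial test with Benjamini-Hochberg adjustment over all of them and a fold minimum of 2. Of these, 273 were higher in replicate 1 and 93 in replicate 2, or 242 and 137 when totals were scaled with DESeq2 size factors. With no fold minimum the balance turned, with 336 higher in replicate 1 and 381 in replicate 2. Of the 36 genes, 33 could be tested, and 0 of 21 replication genes and 0 of 12 mitosis genes were called. At an unadjusted p below 0.05 there were 3. edgeR's exact test with a common dispersion also called 0. That dispersion was estimated from the same 2 libraries, so their differences entered its noise and it is no separate check. The 3 with an unadjusted p below 0.05 were Birc5, Mcm5 and Mcm7. Birc5 was 2.15-fold higher in replicate 2 (95% interval of the ratio 1.17 to 4.18, exact binomial p = 0.0115, adjusted p = 0.121). Mcm5 was lower there, at 0.572 of its level in replicate 1 (0.358 to 0.905, exact binomial p = 0.0159, adjusted p = 0.151). Mcm7 was 1.56-fold higher (1.04 to 2.38, exact binomial p = 0.0317, adjusted p = 0.236). None of these 3 passed the adjustment.

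Of the 33 ratios 31 lay within 2-fold, the exceptions being Birc5 and Mki67. Mki67 had 0.384 of its replicate 1 level in replicate 2, with an interval from 0.0846 to 1.43 on 12 reads. The ratio of the summed level, replicate 2 over replicate 1, was 0.934 for the replication genes (95% interval 0.843 to 1.03) and 0.990 for the mitosis genes (0.831 to 1.18). Both intervals include 1. The median log2 ratio of the 33 was -0.16, beside -0.03 over all genes tested, and 22 were lower in replicate 2. With DESeq2 size factors the replication ratio was 0.996, still below 1, and the mitosis ratio 1.06, so the direction of the mitosis sum turned with the scaling.

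**Figure D2:**
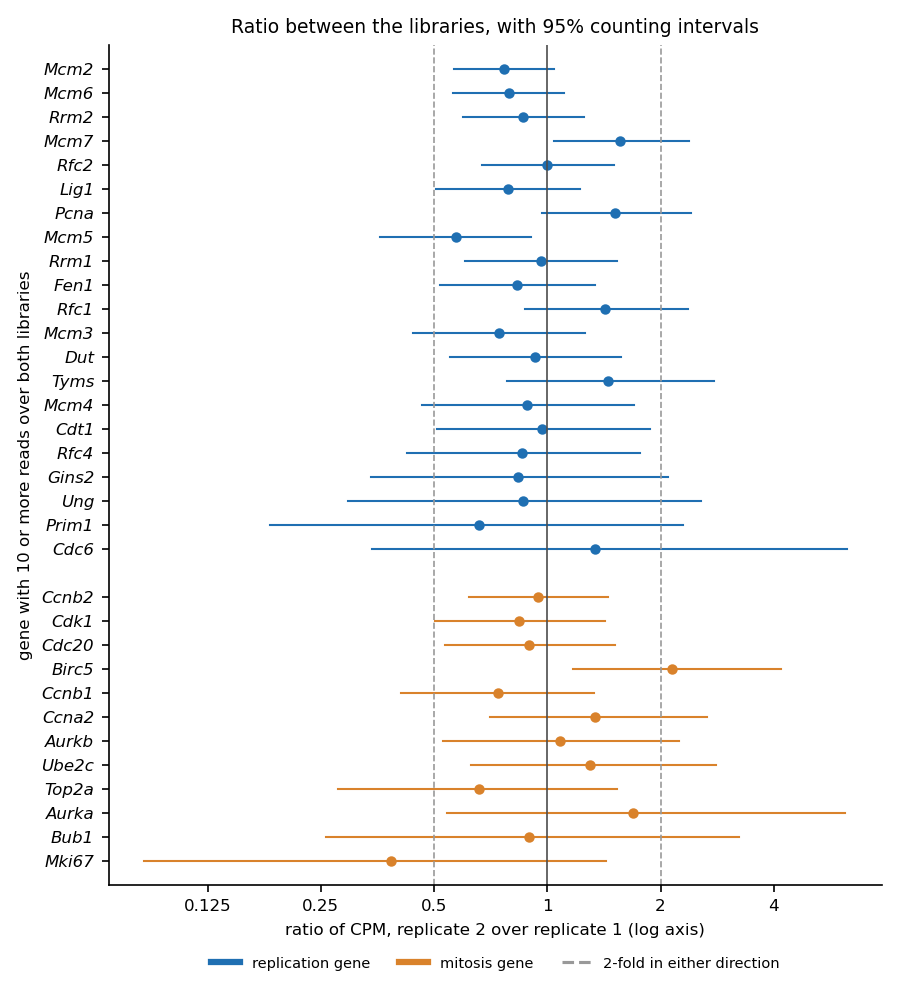
Ratio of CPM in replicate 2 to that in replicate 1 (log axis) for the 33 genes with at least 10 reads, with exact 95% intervals; dashed lines mark 2-fold. The intervals of Mcm5, Mcm7 and Birc5 leave out a ratio of 1, and Birc5 at 2.15 and Mki67 at 0.384 are the only points outside the dashed lines.

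Each read was assigned by the authors' pipeline to a transcript model, which makes it possible to ask what kind of molecule a count stands for. A model is annotated when it is assigned to a GENCODE transcript with all of its splice junctions, if it has any. Some such transcripts are short, as 1 of Mcm3 with 1 exon of 716 bases (3 reads in each library). An incomplete splice match carries only a run of consecutive junctions of a GENCODE transcript, or none if it is unspliced. As a suffix match it keeps the 3' end. The remaining models combine annotated splice sites in another way, use an unannotated site, or are genomic. Genomic is the class for reads that overlap a gene and fit none of these classes, and such reads can lie inside an annotated exon. Annotated models held 73.2% and 75.3% of the replication reads in replicates 1 and 2 and 64.2% and 73.6% of the mitosis reads, beside 71.0% and 75.6% over all genes. Suffix matches were a larger part of the mitosis reads (20.7% and 14.4%) than of the replication reads (9.61% and 8.26%) in both libraries. In replicate 2 this order turned on Ccnb2. Without it, suffix matches were 11.6% and 5.28% of the mitosis reads in replicates 1 and 2, the latter below the replication share. With Mcm2 left out of the replication reads as well, their share was 7.85% and 5.62%. The order thus held in replicate 1, and the groups were close in replicate 2.

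Ccnb2 and Mcm2 had the most suffix reads of their groups, 26 and 30 for Ccnb2 and 19 and 27 for Mcm2. For Ccnb2 a 2-exon suffix model of 449 bases at the 3' end held 24 and 30 reads, more than the 13 and 20 reads of its full 9-exon transcript of 1531 bases. For Mcm2 a 2-exon suffix model of 793 bases held 10 and 17 reads, beside 61 and 54 on the full 16-exon transcript. The same junctions were thus found in both libraries, and the level of each gene sums both kinds of read.

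Lig1 showed the most extreme case. Of its 44 and 45 reads, 30 and 35 lay on an unspliced model of 61 bases (chr7:13311365-13311425, mm10, plus strand) in the annotated 3' UTR, and the ends of such a model need not be those of each of its reads. Spliced reads numbered 14 and 10, and the annotated transcript with the most of them, of 28 exons, had 6 and 4. Exons of Zswim9 on the opposite strand overlap Lig1 elsewhere but hold 0 of these 61 bases. The Lig1 level of 74.2 and 58.3 CPM therefore rested mainly on the reads of this unspliced model, whose own lengths were not examined. Top2a was alike on fewer reads: 6 of 14 and 8 of 12 lay on an unspliced model of 129 bases (chr11:98992943-98993071, minus strand) in its 3' UTR. Only 1 and 2 lay on the full 36-exon transcript. The snoRNA gene Gm23451 shares 122 bases with Top2a exons on the same strand and had 0 reads in each library. Whether it overlaps this model was not examined. No read of Mki67 covered its transcript of 10061 bases. Its 8 and 4 reads were incomplete matches of at most 3 exons. Cenpf, of 11130 bases, had 1 read in each library on the full 18-exon transcript.

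In other members most reads were assigned to annotated transcripts of several kilobases. The lengths given are those of the annotation, and the lengths of the reads themselves were not examined. The Rfc2 transcript of 4995 bases and 11 exons had 38 of 46 reads in replicate 1 and 54 of 60 in replicate 2. The Cdk1 transcript of 4375 bases had 27 of 31 and 31 of 34. Grouped by the length of the principal annotated transcript, the 10 genes of up to 2 kb had 72.2% and 74.1% of their reads on annotated models, the 18 of 2 to 4 kb 73.1% and 75.9%, and the 6 of 4 to 6 kb 65.9% and 74.2%. The 2 above 6 kb, Mki67 and Cenpf, had 7.14% (1 of 14 reads) and 16.7% (1 of 6). Over all genes the share fell with length, from 78.3% and 80.7% in the shortest class to 38.6% and 48.9% in the longest. With 14 and 6 reads, the share of the longest pair gives a description only.

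**Figure D3:**
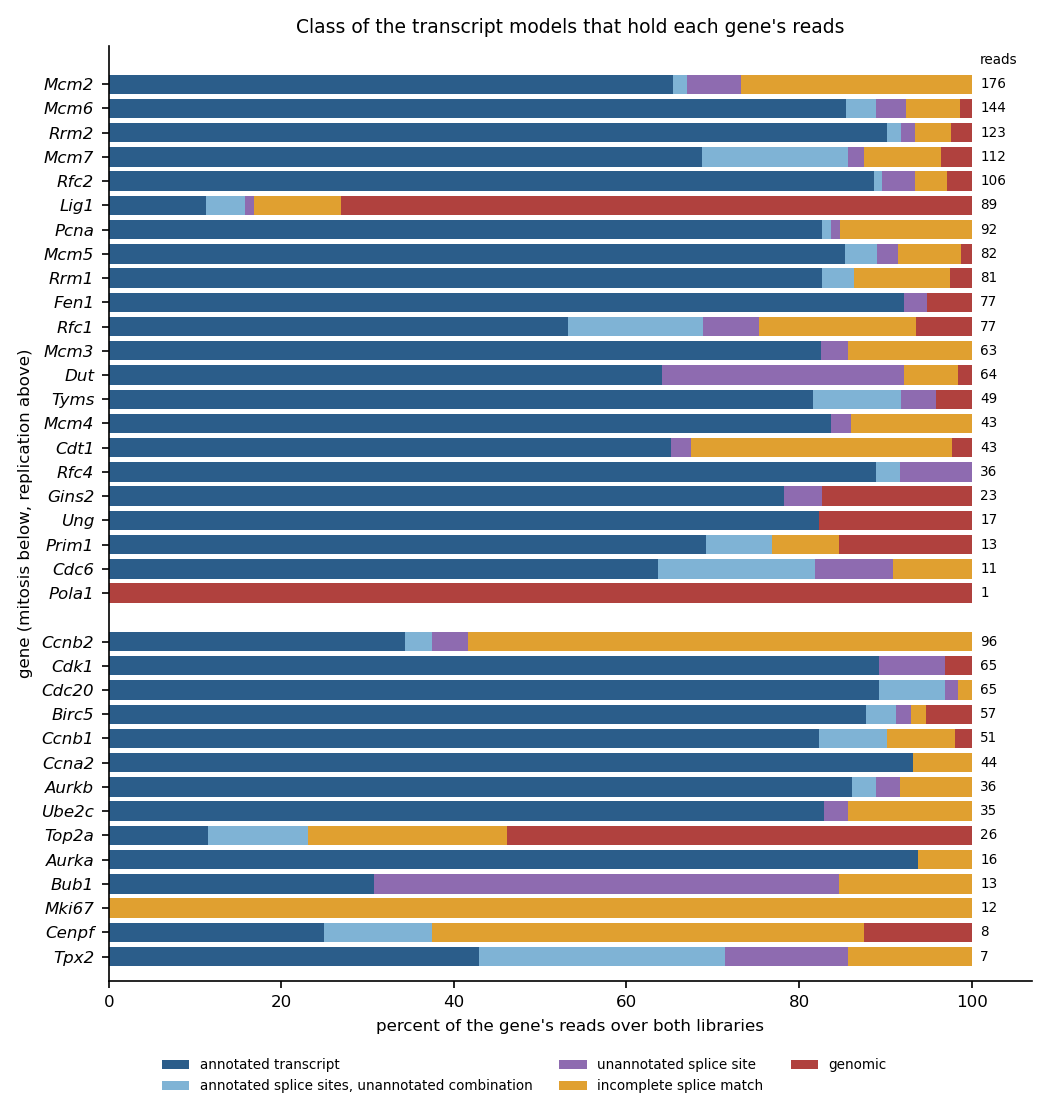
Reads of each gene over both libraries by class of transcript model, in percent (bars), with the number of reads at the right end. Annotated models (dark blue) hold most reads in most genes, and Lig1, Top2a, Ccnb2, Mki67 and Bub1 stand out by their genomic (red), incomplete (yellow) or unannotated-site (purple) reads.

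**Figure D4:**
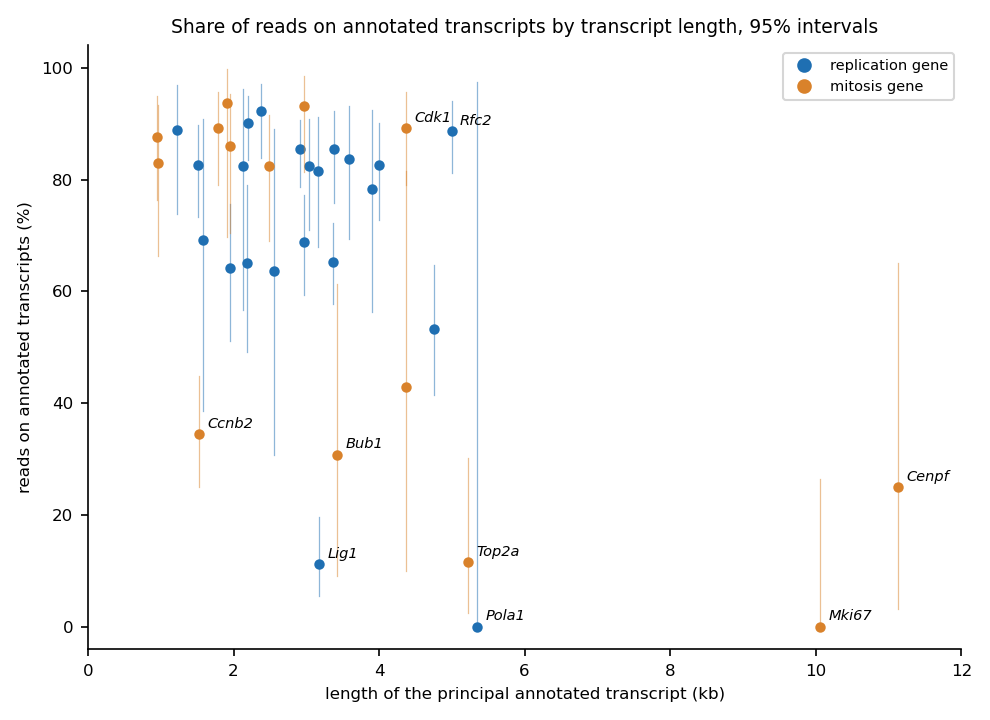
Share of a gene's reads on annotated transcripts over both libraries (y axis, percent, with exact 95% intervals) against the length of its principal annotated transcript (x axis, kb), replication genes in blue and mitosis genes in orange. Cdk1 and Rfc2 keep high shares above 4 kb, whereas Lig1, Top2a, Mki67 and Pola1 lie near the bottom, Pola1 on 1 read.

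The main annotated transcript of a gene could be compared between the libraries where it had at least 20 reads in each. Among 4818 such genes 20 were called different (0.415%) by a two-sided Fisher's exact test with adjustment over all of them and a minimum of 10 percentage points. Of the 18 tested genes of the replication and mitosis groups 0 were called, and 0 had an unadjusted p below 0.05. The lowest exact p was that of Rrm2, whose main transcript took 84.5% and 95.4% of its reads (p = 0.0654, adjusted p = 0.586).

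Competing splice sites, pairs of introns that share 1 end, were found in 6 of the genes. The one outside the annotation with most reads was in Dut, where the choice lies at the start of the second exon. The annotated acceptor was used by 7 of 15 reads in replicate 1 and 11 of 21 in replicate 2. An unannotated site 14 bases upstream was used by the other 8 (53.3%, 95% Clopper-Pearson interval 26.6 to 78.7) and 10 (47.6%, 25.7 to 70.2). The difference of 14 bases is not a multiple of 3, and these bases (chr2:125247750-125247763, mm10, plus strand) are coding in another Dut transcript that runs through them without an intron. They are given here as that transcript has them, since the letters on either side tell the sites apart, with the 14 added bases in capitals.
Dut: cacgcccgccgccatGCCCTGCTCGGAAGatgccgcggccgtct
The annotated intron ends with the letters AG, the usual end of an intron, whereas the bases before the unannotated site are at. The reads themselves were not examined here, so how they were aligned at this site was not tested.

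Bub1 and Rfc1 had acceptors only 3 bases apart, which add or leave out 3 coding bases. In Bub1 an unannotated acceptor that leaves them out was used by 3 of 6 reads in replicate 1 and 3 of 4 in replicate 2, and the annotated one by 3 and 1. In Rfc1 both sites of both pairs are annotated. At the first Rfc1 pair the acceptor that keeps the bases was used by 11 of 24 reads (45.8%) and 18 of 46 (39.1%). At the second pair the acceptor that leaves them out was used by 12 of 24 and by 15 of 38 (39.5%). The bases around these acceptors are printed because the added letters are the same at both Rfc1 sites, and the 3 bases that are in or out stand in capitals.
Bub1: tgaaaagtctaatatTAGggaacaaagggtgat
Rfc1 first site: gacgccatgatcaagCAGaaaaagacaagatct
Rfc1 second site: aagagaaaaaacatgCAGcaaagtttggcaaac
They lie at chr2:127821857-127821859, chr5:65263147-65263149 and chr5:65278821-65278823 (mm10, minus strand), all in coding sequence. Each set of added bases ends in AG, the letters that close the intron when the bases are left out.

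The remaining pairs concern first exons and were annotated. In Mcm7 an inner first exon was spliced to the shared acceptor in 3 of 32 reads of replicate 1 (9.38%, interval 1.98 to 25.0) and 14 of 65 of replicate 2 (21.5%, 12.3 to 33.5). In Mcm5 donors 24 bases apart split the reads, with the less used one at 11 of 32 (34.4%) and 8 of 21 (38.1%). Fen1 used 3 donors: against its main donor, one 116 bases away held 15 of 31 reads in replicate 1 (48.4%, 30.2 to 66.9) and 7 of 33 in replicate 2 (21.2%, 8.98 to 38.9), and one 11 bases away held 4 of 20 and 4 of 30. For each pair the intervals of the 2 libraries overlap.

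The start sites were compared next, since replication and mitosis genes are known for different promoter elements. E2F factors bind GC-rich sites at many S-phase genes. The DREAM and MuvB complexes bind the cell cycle genes homology region (CHR) at G2 and M genes, often beside CCAAT boxes bound by NF-Y. The window ran from 250 bases before to 50 after each RefSeq start (GRCm38.p6), and 30 of the 36 genes had one. Mcm4, Gins2, Rfc2, Ccna2, Aurkb and Tpx2 had none. RefSeq starts were not matched to the annotated transcripts that held the reads. The windows with matches in Mcm7 and Cdc6 lie inside the span of the annotated transcript with most reads, past its start. The window with a match in Fen1 lies wholly before the annotated gene. Both strands were searched for E2F (TTTCGCGC, TTTGGCGC, TTTCCCGC or TTTGCCGC), CHR (TTTGAA or TTCGAA) and CCAAT, and matches of 1 motif that overlap were each counted. Of all 32851 windows of that length, 2.26% held an E2F match, 19.2% a CHR match and 37.4% a CCAAT match.

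The groups differed in which motif they held. E2F letters were present in 8 of 19 replication genes (42.1%) and 1 of 11 mitosis genes (9.09%), beside 2.60% of all 27025 genes with a window and 4.82% of the 7434 of these with at least 5 reads in each library. The 8 were Mcm3, Mcm5, Mcm6, Mcm7, Cdc6, Cdt1, Lig1 and Pola1, and the mitosis gene was Cdk1. CHR letters were present in 9 of 11 mitosis genes (81.8%) and 3 of 19 replication genes (15.8%), beside 21.7% and 15.8% of the same gene sets. The mitosis genes without a match were Ccnb1 and Birc5. CCAAT was found in 10 of 11 mitosis genes (90.9%) and 11 of 19 replication genes (57.9%), beside 41.1% and 43.2%. All 9 mitosis genes with CHR letters also held CCAAT (81.8%), a pair found in 2 of 19 replication genes (10.5%) and in 9.65% and 7.92% of the gene sets. No test was made over these genes, and a match of letters is no evidence of binding.

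**Figure D5:**
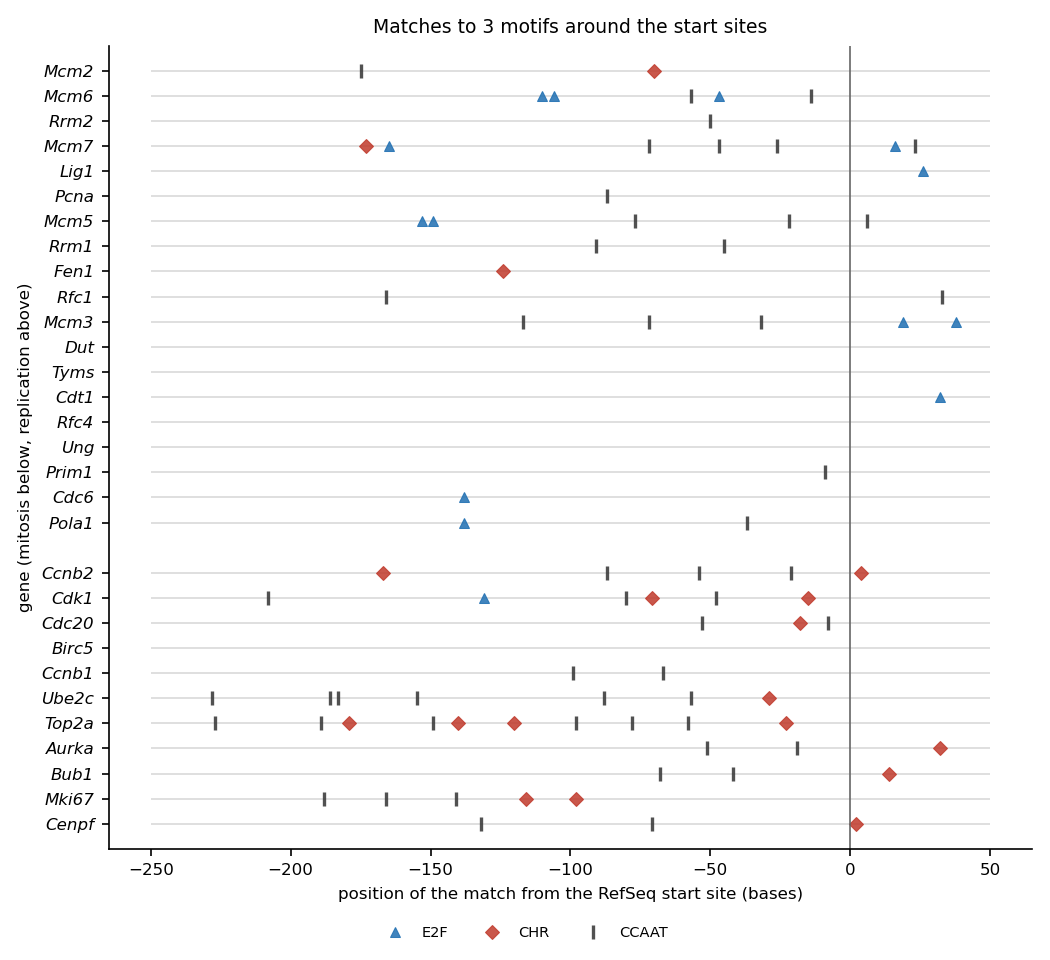
Position of each match to E2F (blue triangles), CHR (red diamonds) and CCAAT (black bars) relative to the RefSeq start site at 0 (x axis, bases), 1 row per gene, with positions of genes with more than 1 window drawn on the same row. Red diamonds lie mostly in the mitosis rows below, at 9 of 11 genes, and blue triangles in the replication rows above, at 8 of 19.

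The windows of 5 genes picked to show the contrast are printed here. Not all genes follow it: E2F letters were in 8 of 19 replication genes, and Mcm2 held CHR and CCAAT letters without E2F. The 200 bases before the start of Mcm5 (chr8:75109309-75109508, plus strand) and Mcm6 (chr1:128359706-128359905, minus strand) hold E2F and CCAAT letters. Those of Cdk1 (chr10:69352913-69353112, minus strand) hold all 3 motifs. Those of Top2a (chr11:99024190-99024389, minus strand) and Cdc20 (chr4:118437344-118437543, minus strand) hold CHR and CCAAT letters. All are from RefSeq on GRCm38.p6, read in the direction of the gene, with the matches in capitals as they stand on that strand.
Mcm5: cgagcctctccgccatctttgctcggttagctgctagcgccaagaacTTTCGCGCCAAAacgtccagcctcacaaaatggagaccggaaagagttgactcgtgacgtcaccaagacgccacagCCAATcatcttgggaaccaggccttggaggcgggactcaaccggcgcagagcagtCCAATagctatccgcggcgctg
Mcm6: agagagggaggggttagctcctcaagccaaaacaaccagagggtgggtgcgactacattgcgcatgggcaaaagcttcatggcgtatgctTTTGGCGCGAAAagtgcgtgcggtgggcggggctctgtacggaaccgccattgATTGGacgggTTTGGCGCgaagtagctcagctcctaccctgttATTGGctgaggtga
Cdk1: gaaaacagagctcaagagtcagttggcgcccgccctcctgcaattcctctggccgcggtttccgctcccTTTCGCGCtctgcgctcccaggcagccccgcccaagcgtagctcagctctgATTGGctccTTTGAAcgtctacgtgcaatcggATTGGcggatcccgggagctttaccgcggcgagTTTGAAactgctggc
Top2a: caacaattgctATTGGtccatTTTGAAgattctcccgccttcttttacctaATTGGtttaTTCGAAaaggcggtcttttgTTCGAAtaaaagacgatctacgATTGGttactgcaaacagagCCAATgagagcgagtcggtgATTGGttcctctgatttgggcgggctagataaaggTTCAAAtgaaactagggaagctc
Cdc20: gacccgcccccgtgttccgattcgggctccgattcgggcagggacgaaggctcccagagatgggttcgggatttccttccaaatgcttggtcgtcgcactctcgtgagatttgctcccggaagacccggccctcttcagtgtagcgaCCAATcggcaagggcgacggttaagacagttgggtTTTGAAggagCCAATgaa
In Mcm5 and Mcm6 the long capital runs are pairs of E2F matches on opposite strands that share 4 letters. Top2a held 4 CHR and 5 CCAAT matches in this stretch, Cdk1 2 of each and 1 E2F match, and Cdc20 1 CHR and 2 CCAAT matches. Whether the matches go with the level of a gene was not tested.

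Other genes of the same pathways were read from lists that do not include the 36. Of 50 other replication genes, 39 had 5 or more reads in both libraries, 42 were tested between the libraries, and 1 was called. That gene, Rnaseh2c, a subunit of ribonuclease H2, had 10 and 38 reads (2.92-fold, adjusted p = 0.030 by the exact binomial test) and was not called by edgeR's exact test. The highest were Orc3 of the origin recognition complex (77 and 81 reads), Rpa3 of the single-strand binding protein (57 and 102), the thymidylate kinase Dtymk (56 and 83), the polymerase delta subunit Pold2 (51 and 60) and Rpa1 (38 and 51). Of 54 other mitosis genes, 38 reached that depth and 0 of 41 tested were called. They were led by the kinetochore protein Zwint (135 and 158 reads), Bub3 (63 and 91), securin Pttg1 (43 and 70), Cks1b (30 and 46) and Ube2s (23 and 49). The median of the mean over libraries was 25.7 CPM for the other replication genes and 15.9 CPM for the other mitosis genes. It was 51.1 CPM for the 22 replication genes and 25.7 CPM for the 14 mitosis genes. The sums of the other lists lay closer together than those of the 36 genes. For the 50 replication and 54 mitosis genes they were 1555 and 1354 CPM in replicate 1, and 1629 and 1390 CPM in replicate 2.

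Of 40 regulators of the cell cycle, 26 reached it and 0 of 32 tested were called. Cdkn1c, an inhibitor of cyclin-dependent kinases, had 542 and 612 reads (914 and 793 CPM), several times the level of any of the 36 genes. Cdk4, which starts the cycle, had 122 and 159 reads (206 CPM in each), followed by the cyclin Ccnd3 (87 and 143 reads), the E2F partner Tfdp1 (78 and 90) and Trp53 (57 and 103).

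Histone genes split by type. Of 35 replication-dependent histone genes, whose messages are made in S phase and mostly carry no poly(A) tail, only 3 reached it and 17 had no read. The 3 were Hist1h2bc (59 and 110 reads), Hist1h1c (27 and 31) and Hist1h4h (13 and 18), followed by Hist1h4i (1 and 4) and Hist1h1e (1 and 2). Of 11 replication-independent histone genes, 10 were at that depth, led by H3f3b (369 and 505 reads), H3f3a (226 and 355), H2afz (192 and 301), H2afj (87 and 184) and H1f0 (104 and 158). None was called, although H2afj, 1.62-fold higher in replicate 2, had an adjusted p of 0.00429 by the exact binomial test, below the fold minimum of 2. Whether the library preparation selects for poly(A) tails is not given in the sources used here.

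Exons of 10 of the 36 genes overlap those of another gene, in 9 of them on the opposite strand. Of the genes opposite them, Cops6 (opposite Mcm7), Eif4a2 (opposite Rfc4), Tmem258 (opposite Fen1) and Tnnc2 (opposite Ube2c) had over 100 reads in each library. Reads were counted as the deposited tables assign them, and whether strand was used for this is not given in the sources used here. The counts of these genes are uncertain to that extent.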

How the data were processed

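Long-read RNA sequencing of 2 adrenal gland libraries was analysed from the authors' deposited tables of counts, which hold raw whole reads for each transcript model. Per the labels the assembly is mm10, and per the file headers the models come from TALON with GENCODE M21; the platform, aligner and tool versions are not given in those sources. Model length and number of exons, a unit other than counts, were used as the authors deposited them. ERCC spike-in reads (13619 and 16617, 2.24% and 2.11%) were removed. The SIRV spike-ins named in the labels were not analysed here. Gene counts sum all models of an annotated gene, and CPM uses the remaining totals; annotated genes held 92.8% and 94.9% of them. The 36 genes, the other gene lists and the tests were chosen with earlier results of these data known. All 36 are described; of each further list the 5 highest by mean CPM and every called gene are named.

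Libraries were compared by a two-sided exact binomial test (smaller tail doubled, at least 10 reads over both libraries, pseudocount of 0.5 reads in log2 ratios) and main transcripts by Fisher's exact test, both with Benjamini-Hochberg adjustment over all genes (threshold 0.05). With 1 library against 1 no quasi-likelihood fit is possible; edgeR 4.0.16 (exact test, common dispersion of the 2 libraries; TMM) and DESeq2 1.42.0 (size factors) gave alternatives. Python 3.11.15, SciPy 1.17.1 and statsmodels 0.14.6 were used. Competing introns needed 1 read in each library and 4 in all. Both tests and edgeR's were run on simulated counts with known changes. For the binomial and Fisher tests these held counting error only. They do not show how those tests behave with other spread between libraries. Promoter windows and names came from RefSeq, transcript sequences from GENCODE.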

Additional observations from a re-analysis of the deposited data

How the results depend on the processing

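With 2 libraries and few reads, the precision of single genes is limited, and no member was called under any of the 8 alternatives for calls. No paired analysis was possible because there is 1 group and no contrast. Alternatives were planned except 2 chosen after seeing the data, the suffix shares without Ccnb2 or Mcm2 (7.85% and 5.62% of the replication reads without Mcm2) and the two-sided p by outcome probability, which called 410 genes in place of 366. The number called was 717 with no fold minimum, 124 with edgeR's exact test and 238 on annotated models only. The replication sum was 831 CPM on annotated models, 1025 on models with 2 or more exons and 989 without Mcm2, and its median gene had 48.0. The mitosis sum was 268, 371 and 319 (without Ccnb2), 381 with spike-ins in the total, and its median gene had 26.1. The mitosis percentage was 24.4 on annotated models, 24.4 without the most-read genes and 35.3 by medians. With 1 library alone, the replication sum was 1082 to 1158, the mitosis sum 387 to 391 and the percentage 25.2 to 26.4. Genes with a differing main transcript numbered 37 at 50 reads and 36 with no minimum difference. The members' annotated share was 72.9%, or 78.5% on models with 2 or more exons. Of the remaining comparisons of these results, 42 moved by less than the spread between libraries or, for counts, less than 1.5 times. By construction, sums and percentages of 1 library alone could not move beyond this spread, nor could the percentage with spike-ins in the total. A pseudocount of 5 reads was also run for the 36 log2 ratios; scaled to library size, it cannot turn a sign, and no call changed. Where a value moved, the cause was not tested.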
